A study of Homo sapiens with 6 samples.

Results

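The miR-106a-363 cluster is a set of 6 microRNA hairpins on the X chromosome, and its mature arms were followed here in K562 cells with and without over-expression of RUNX1. The members are the 10 entries of the deposited count files that name an arm made only from this locus: hsa-miR-106a-5p and hsa-miR-106a-3p, hsa-miR-18b-5p and hsa-miR-18b-3p, hsa-miR-20b-5p and hsa-miR-20b-3p, hsa-miR-363-5p and hsa-miR-363-3p, and the 5p arms hsa-miR-19b-2-5p and hsa-miR-92a-2-5p. They are 10 of 28846 small RNA entries in each file, of which 2596 are microRNA entries. The arms were listed by their locus, but the locus itself was chosen with measured values of the RUNX1 against control comparison known. The values of the members in this comparison are therefore given as a description and were not tested.

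Replicates 1, 2 and 3 of a condition are given in this order wherever 3 values stand together. K562 is an established human cell line from a chronic myeloid leukemia in blast crisis, widely used to study red cell and platelet precursor genes. The control samples received the lentiviral vector SIEW, which expresses GFP only, and the RUNX1 samples received SIEW RUNX1, which expresses human RUNX1 and GFP, with 3 independent transductions for each condition. RNA was taken after 10 days in culture and small RNA was sequenced from 1000 ng of total RNA. Whether the cells were sorted for GFP before this sequencing is not given in the sources used here, and the files hold no mRNA, so the level of RUNX1 itself could not be checked in these libraries.

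A microRNA is cut from a hairpin in a longer transcript and, loaded into an Argonaute protein, lowers the output of messenger RNAs that pair with its seed, bases 2 to 8 from the 5′ end. The miR-106a-363 cluster is one of the 2 paralogs of the miR-17/92 cluster, a locus that is amplified and over-expressed in lymphomas and known as oncomiR-1. The other paralog, miR-106b/25, lies in an intron of MCM7. In most tissues the X-linked copy is the least expressed of the 3 loci. The arms of the 3 loci fall into shared seed families, so that an arm of one locus can recognise the same target sites as its counterpart from another.

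In GENCODE release 29 (GRCh38) all 6 hairpins lie on the minus strand of chromosome X, inside exon 2 of the noncoding transcript AC002407.1, which RefSeq names MIR106AHG. In the direction of transcription they are MIR106A (chrX:134170198-134170278), MIR18B (chrX:134170041-134170111), MIR20B (chrX:134169809-134169877), MIR19B2 (chrX:134169671-134169766), MIR92A2 (chrX:134169538-134169612) and MIR363 (chrX:134169378-134169452). The cluster spans 901 bases, with 42 to 163 bases between neighbouring hairpins. The count files were made on hg19, and no coordinate was carried between the builds.

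The 4 arms on which the results turn, and the counterpart of each in miR-17/92 or with the same seed, are shown as RefSeq (GRCh38.p14) gives the mature RNA, with the seed in capitals. RefSeq had a sequence for 9 of the 10 members, and miR-106a-3p was without one.

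hsa-miR-106a-5p: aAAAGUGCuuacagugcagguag
hsa-miR-17-5p: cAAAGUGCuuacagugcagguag
hsa-miR-20b-5p: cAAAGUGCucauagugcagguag
hsa-miR-20a-5p: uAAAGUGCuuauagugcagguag
hsa-miR-18b-5p: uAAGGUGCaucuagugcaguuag
hsa-miR-18a-5p: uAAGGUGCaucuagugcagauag
hsa-miR-363-3p: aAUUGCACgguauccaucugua
hsa-miR-92a-3p: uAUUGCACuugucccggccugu

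With positions counted from 1 at the 5′ end and the base of the miR-17/92 arm written first, miR-106a-5p differs from miR-17-5p by C1A alone and miR-18b-5p from miR-18a-5p by A20U alone. For miR-20b-5p the differences from miR-20a-5p are U1C and U10C. By contrast, miR-363-3p shares its seed with miR-92a-3p but only 10 of 22 bases in all, and the closest of 2370 human mature arms compared, miR-367-3p, differs from it at 8 positions. A read of miR-17-5p or miR-18a-5p with 1 changed base at these positions has the sequence of the X-linked arm. How the authors assigned reads that fit several loci is not given in the sources used here.

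The products that the cluster shares with miR-17/92 are miR-19b-3p and miR-92a-3p, each identical in 2 loci, and they are not members. Arms found at several loci had low counts in these files. Summed over the 6 libraries, the median was 0 counts for 134 arms listed at 2 or more loci and 3 counts for 2128 arms listed at 1 locus, and let-7a-5p, which has 3 loci, had 9 to 69 counts per library. Between the 2 shared arms the counts differed widely, with 146 to 562 per library for miR-19b-3p and 54016 to 222143 for miR-92a-3p.

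Total counts ranged from 1618248 (control replicate 1) to 15245007 (RUNX1 replicate 1), and 3 counts, taken as the floor of detection, were 1.43 counts per 1000000 (CPM) in the smallest library and 0.26 in the largest on the scale used for the members. All CPM values of members below were scaled with edgeR's TMM factors, which assume that most small RNAs do not differ between the libraries. The call rule, taken from the study and used here with edgeR, asks for a P-value under 0.05 together with a log2 fold change (log2FC) of 0.5 or more in either direction, and 57.6% of the 947 tested small RNAs met it, 265 higher and 280 lower. With library size alone the numbers were 120 higher and 521 lower, with TMM factors from microRNAs only 213 and 345, and with miR-10a-5p left out of the library size 186 and 393. In a bulk library, fewer cells of a type and less RNA per cell cannot be told apart. Of the marker lists used to check the cells, the 5 erythroid arms summed to 4478 to 5108 CPM in control and 2386 to 3785 CPM in RUNX1 samples. The 5 white blood cell arms had 13830 to 15537 CPM in control and 37132 to 54043 CPM in RUNX1 samples. For the 5 muscle and stroma arms the range went from 70.9 to 75.3 CPM in control to 1954 to 2161 CPM in RUNX1 samples, and for the 6 epithelial arms from 55.8 to 63.6 CPM to 166 to 180 CPM. Most of the muscle and stroma sum with RUNX1 was miR-143-3p alone, whose mean went from 18.7 to 1986 CPM. The mean of miR-145-5p moved from 54.5 to 95.9 CPM, and miR-1 reached a mean of only 5.61 CPM with RUNX1. miR-133a-3p and miR-133b had 0 to 7 counts per library. The hepatocyte arm miR-122-5p and the 5 pluripotent cell arms were low in every library, with highest sums of 1.13 and 1.19 CPM. Of the arms that passed the count filter, 3 of 3 muscle and stroma, 3 of 4 epithelial, 4 of 4 white blood cell and 1 of 5 erythroid arms were called higher, and 3 erythroid arms lower. No arm of these lists was at 0 in all libraries, and the part of such other cell types in the values of the members was not tested.

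All 10 members together were rare. In control samples they summed to 20, 74 and 88 counts, which is 9.56, 9.18 and 11.6 CPM, while the 10 arms particular to miR-17/92 summed to 37042, 35199 and 41115 CPM. In RUNX1 samples the members had 627, 355 and 280 counts, or 54.4, 56.8 and 40.9 CPM, above every control sample. The miR-17/92 arms summed to 30518, 30346 and 38127 CPM there, a range that overlapped that of the controls. Without miR-363-3p the members still summed to 17.5 to 21.3 CPM in RUNX1 samples and 8.44 to 10.9 CPM in control samples. Part of this difference comes from the scaling. The TMM factors, which multiply the library size, were 1.23 to 1.31 in control and 0.735 to 0.866 in RUNX1 samples. With library size alone the difference is smaller.

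Of the 10 members, 4 passed edgeR's filter on low counts, namely miR-106a-5p, miR-18b-5p, miR-20b-5p and miR-363-3p. miR-363-3p passed only through the RUNX1 samples, since none of the control samples reached the level asked for (1.42 CPM before scaling), so that it could only enter the fit as an arm that was high there. For miR-18b-5p 2 control samples reached it, and for miR-106a-5p and miR-20b-5p all 6 samples did. By the call rule 3 of the 4 were higher in RUNX1 samples and none was lower, where 28.0% of all tested small RNAs were called higher and 29.6% lower. With the adjusted P-value in the rule the same number of members was called, where 54.6% of all tested small RNAs were. With TMM the samples of the conditions did not overlap for 3 of the 4, all with RUNX1 higher. Such a separation held for 31.4% of all tested small RNAs with RUNX1 higher and 33.5% with RUNX1 lower. Nothing is read from these numbers, since the locus was chosen on the same comparison. The median log2FC of the 4 was 1.49, against -0.06 over all 947 tested.

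hsa-miR-363-3p, the last hairpin product of the cluster and a member of the miR-25 seed family, had 1, 6 and 5 counts in control samples and 397, 222 and 160 counts in RUNX1 samples. Scaled, this was 0.478, 0.745 and 0.658 CPM in control and 34.4, 35.5 and 23.4 CPM in RUNX1 samples, with means of 0.627 ± 0.136 and 31.1 ± 6.73 CPM (SD, n = 3 each). The conditions lay far apart, and RUNX1 replicate 3 was the lowest of its group. The log2FC was 5.50 (standard error, SE, 0.31), the fifth highest of the 947 tested, in the comparison known when the locus was chosen. By mean level miR-363-3p ranked 718 among the 1364 microRNA entries with a count in control samples and 236 among 1441 in RUNX1 samples. Its control level rests on 12 counts in all, with control replicate 1 below the floor of 3 counts, and is imprecise. The other arm of this hairpin, miR-363-5p, had no count in any library, so that the 3p arm was at least 132-fold, 74-fold and 53.3-fold more abundant in the RUNX1 samples when the 5p arm is set to the floor of 3 counts per library.

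hsa-miR-20b-5p, of the miR-17 seed family, had 5, 21 and 16 counts in control and 87, 41 and 39 counts in RUNX1 samples. These are 2.39, 2.61 and 2.11 CPM in control and 7.55, 6.56 and 5.69 CPM in RUNX1 samples, which did not overlap. The means were 2.37 ± 0.25 and 6.60 ± 0.93 CPM (SD, n = 3 each), and the log2FC was 1.48 (SE 0.25).

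hsa-miR-18b-5p, of the miR-18 seed family, varied most within the control samples. It had 5, 7 and 23 counts in control samples, or 2.39, 0.869 and 3.03 CPM, and 77, 39 and 27 counts in RUNX1 samples, or 6.68, 6.24 and 3.94 CPM. With TMM all RUNX1 samples lay above the controls, although RUNX1 replicate 3 came close to control replicate 3. Per total count the order of these libraries was reversed, with 27 of 7918551 counts in RUNX1 replicate 3 and 23 of 6193319 in control replicate 3. Without TMM the conditions therefore overlapped. The means were 2.10 ± 1.11 and 5.62 ± 1.47 CPM (SD, n = 3 each), with a log2FC of 1.49 (SE 0.42). Its size depended on the control library left out, with 0.99 without control replicate 2 and 2.16 without control replicate 3.

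hsa-miR-106a-5p, the product of the first hairpin and also of the miR-17 seed family, had 9, 40 and 44 counts in control and 61, 52 and 51 counts in RUNX1 samples. This came to 4.30, 4.96 and 5.79 CPM in control and 5.29, 8.32 and 7.44 CPM in RUNX1 samples. RUNX1 replicate 1 lay within the range of the controls, and the conditions overlapped. The means were 5.02 ± 0.75 and 7.02 ± 1.56 CPM (SD, n = 3 each). The log2FC of 0.42 (SE 0.25) stayed below the call rule, and it was -0.27 when libraries were scaled to their size alone, so that no direction can be given. Without RUNX1 replicate 1 it was 0.63 and met the rule.

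**Figure D1:**
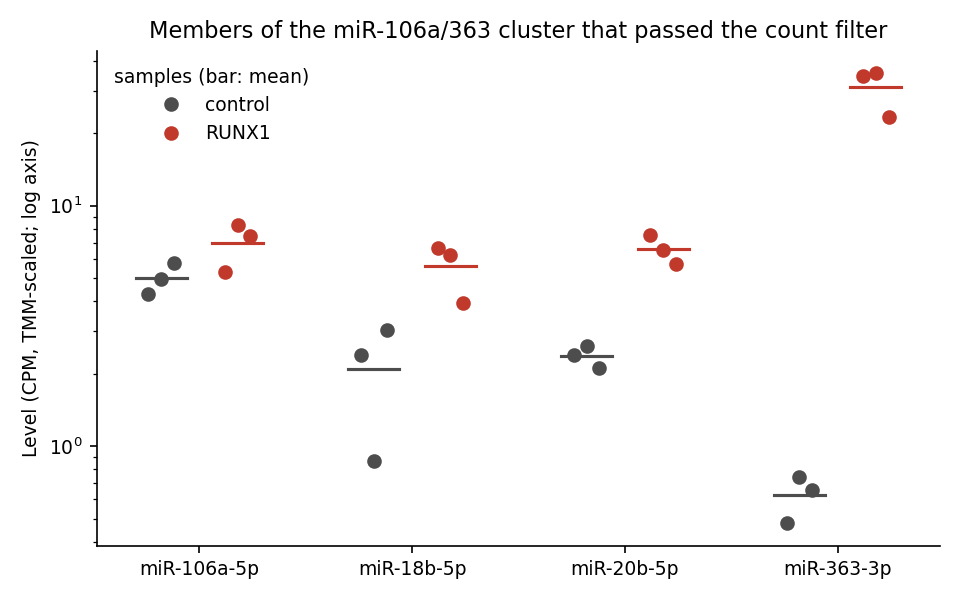
Level of the 4 members that passed the count filter, in CPM on a log axis, for each control (grey) and RUNX1 (red) sample, with replicates 1 to 3 from left to right and a bar at the mean. On this TMM scale the RUNX1 samples of miR-363-3p, at 23.4 to 35.5 CPM, lie far above its control samples at 0.478 to 0.745 CPM. Those of miR-18b-5p and miR-20b-5p lie above their controls by less, and those of miR-106a-5p overlap with their controls.

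The other 6 members were at or near 0. miR-18b-3p had 2, 1 and 1 counts in RUNX1 samples and none in control samples. miR-106a-3p had 2 counts in RUNX1 replicate 1, miR-20b-3p had 1 count each in RUNX1 replicates 1 and 3, and miR-92a-2-5p had 1 count in RUNX1 replicate 3. No count was found for miR-19b-2-5p or miR-363-5p. All of these lie below the floor of 3 counts per library, so no fold change is given, and a level below that floor was not detectable at this depth.

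In order of level, miR-106a-5p came first in control samples, above miR-20b-5p and miR-18b-5p, which overlapped with each other, and miR-363-3p came last, below every sample of the other 3. In RUNX1 samples the order was different. miR-363-3p lay above all others in every sample, and miR-106a-5p, miR-20b-5p and miR-18b-5p did not separate, with means of 7.02, 6.60 and 5.62 CPM.

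This change of order can be read without any scaling between libraries, as the share of each arm in the counts on the 10 members. miR-363-3p took 5.0% of these counts in control replicate 1, 8.11% in replicate 2 and 5.68% in replicate 3, with exact 95% intervals (Clopper-Pearson) of 0.127 to 24.9%, 3.03 to 16.8% and 1.87 to 12.8%. In the RUNX1 samples it took 63.3% (59.4 to 67.1%), 62.5% (57.3 to 67.6%) and 57.1% (51.1 to 63.0%). The intervals cover only the counting error of each share and treat reads as independent. Reads amplified by PCR are not independent molecules, so the intervals may be too narrow even for that error. They are no test of the difference, which was known when the locus was chosen. miR-106a-5p, at 49.7% ± 4.54 of the counts in control samples, took 14.2% ± 4.26 in RUNX1 samples (SD, n = 3 each). For miR-20b-5p the shares were 23.9% ± 5.19 and 13.1% ± 1.36, and for miR-18b-5p 20.2% ± 9.32 and 11.0% ± 1.32 (SD, n = 3 each).

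**Figure D2:**
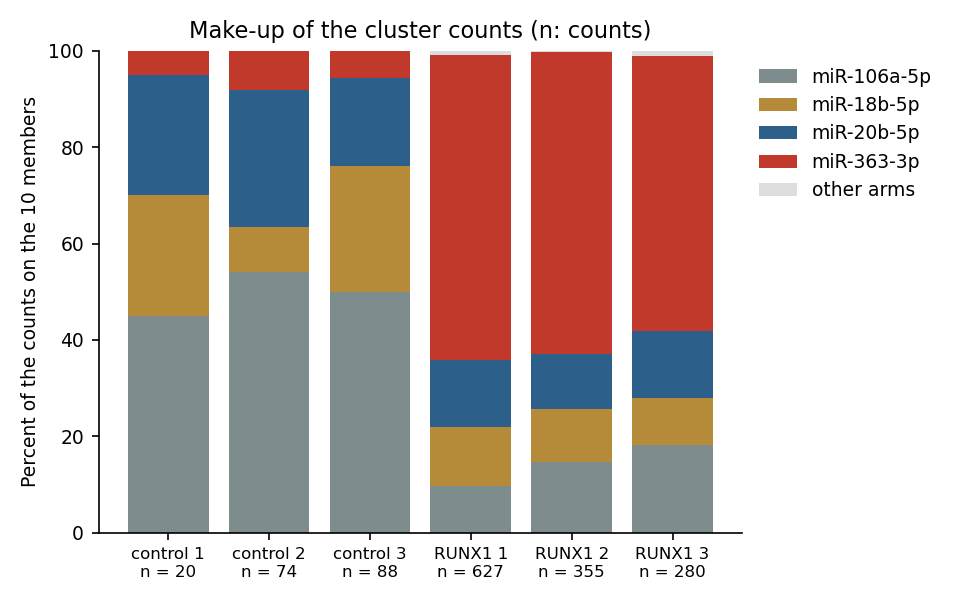
Share of each arm, in percent, in the counts on the 10 members, for each of the 6 samples, with the number of counts under each bar. miR-363-3p makes up 5.0 to 8.11% of the cluster counts in control samples and 57.1 to 63.3% in RUNX1 samples.

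The comparison with the paralogs asks whether the X-linked arms moved with their counterparts from miR-17/92. The chromosome 13 counterparts were far more abundant, with 11254 ± 628 CPM for miR-17-5p, 18537 ± 2075 CPM for miR-20a-5p and 2246 ± 189 CPM for miR-18a-5p in control samples (SD, n = 3 each). In RUNX1 samples their means were 8721 ± 1446, 15478 ± 2701 and 2055 ± 153 CPM. With TMM none of the 3 met the call rule, with log2FC values of -0.37 (SE 0.14, adjusted p = 0.0481), -0.26 (SE 0.15, adjusted p = 0.172) and -0.13 (SE 0.12, adjusted p = 0.402) by the quasi-likelihood test of edgeR, with P-values adjusted over all tested small RNAs after Benjamini and Hochberg. This depended on the scaling. miR-17-5p was called lower with TMM on microRNAs only (-0.55), with miR-10a-5p left out of the library size (-0.69) and with library size alone (-1.05), miR-20a-5p under the last 2 of these (-0.58 and -0.94), and miR-18a-5p with library size alone (-0.82).

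Within a library, the ratio of a member to its paralog needs no scaling. For every 10000 counts of miR-17-5p there were 3.92, 4.59 and 4.84 counts of miR-106a-5p in control samples and 6.78, 10.4 and 7.17 in RUNX1 samples. The log2 ratio was higher by 0.82 in RUNX1 samples, and the samples did not overlap. In this pair miR-17-5p had a log2FC of -0.37 and miR-106a-5p one of 0.42, with overlapping samples for the latter arm on its own. For every 10000 counts of miR-20a-5p there were 1.34, 1.54 and 1.01 counts of miR-20b-5p in control and 5.07, 5.0 and 3.09 in RUNX1 samples, which differed by 1.69 in the log2 ratio, again with no overlap.

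miR-18b-5p stood at 10.3, 4.27 and 12.7 counts for every 10000 of miR-18a-5p in control and at 35.6, 29.1 and 18.4 in RUNX1 samples, which differed by 1.62 in the log2 ratio. The widest difference was that of miR-363-3p to miR-92a-3p, from 0.185, 0.27 and 0.242 counts for every 10000 in control to 19.6, 19.8 and 8.63 in RUNX1 samples, 5.75 in the log2 ratio. In all 4 ratios the RUNX1 samples lay above the control samples. Nothing is read from this, since the locus was chosen with this comparison known and no ratios of arms outside the cluster were counted. How much of the counts of the first 3 pairs, which differ by 1 or 2 bases, comes from altered reads of the paralog was not tested.

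**Figure D3:**
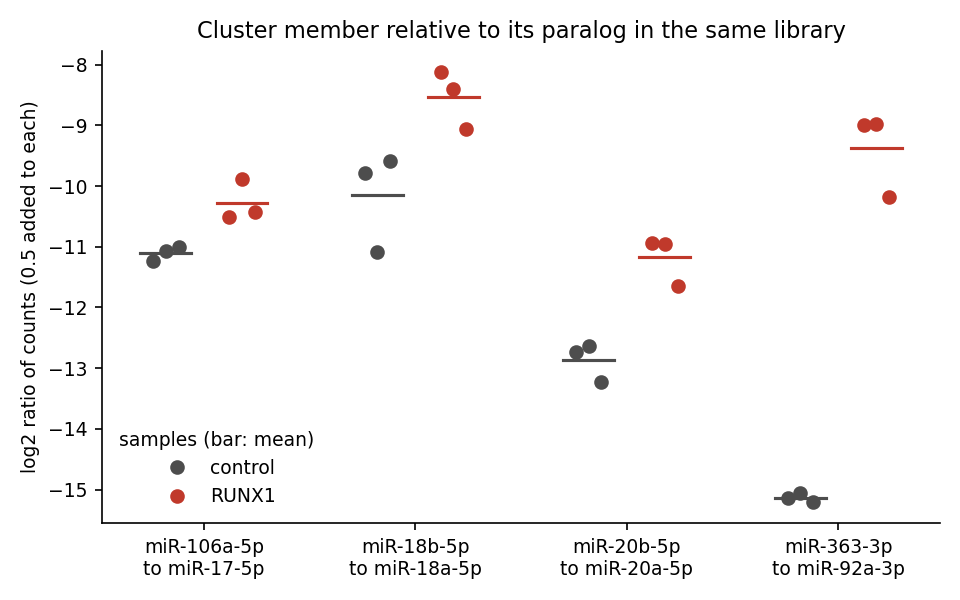
log2 ratio of the counts of a member to those of its paralog in the same library, with 0.5 added to each count, for control (grey) and RUNX1 (red) samples, replicates 1 to 3 from left to right, bars at the mean. For miR-363-3p the partner is miR-92a-3p, which can come from either locus. In all 4 pairs the RUNX1 samples lie above the control samples, by 0.82 for miR-106a-5p and by 5.75 for miR-363-3p in the mean. This comparison was known when the locus was chosen.

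Even in RUNX1 samples the members remained a small part of their seed families. miR-363-3p made up 0.00131% ± 0.000255 of the counts of the miR-25 family (miR-25-3p, miR-32-5p, miR-92a-3p, miR-92b-3p, miR-363-3p and miR-367-3p) in control samples and 0.0782% ± 0.0261 in RUNX1 samples (SD, n = 3 each). miR-106a-5p and miR-20b-5p together took 0.0212% ± 0.00177 of the miR-17 family (with miR-17-5p, miR-20a-5p, miR-93-5p and miR-106b-5p) in control and 0.0468% ± 0.00913 in RUNX1 samples. The largest share was that of miR-18b-5p in the pair with miR-18a-5p, 0.0908% ± 0.0432 in control and 0.276% ± 0.0864 in RUNX1 samples. The families are the arms listed here. Among human mature arms the miR-17 family seed occurs in 8 and the miR-18 family seed in 3, so some arms with these seeds were not counted. In each family as listed the share of the members was higher in all RUNX1 samples than in the control samples. This too is a description, since the locus was chosen with the comparison known.

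Among the 10 arms particular to miR-17/92, all of which passed the filter, 1 rose and 4 fell, and the median log2FC was -0.41. These 5 of 10 called arms stand beside 57.6% called among all tested small RNAs, 28.0% higher and 29.6% lower. The arm that rose was miR-19a-3p, from 2924 ± 229 to 5202 ± 558 CPM (SD, n = 3 each), a log2FC of 0.83 (SE 0.13, adjusted p = 0.00053 in the same edgeR test). The arms that fell were miR-17-3p, miR-18a-3p, miR-20a-3p and miR-92a-1-5p. Of these miR-92a-1-5p fell most, by 1.81 (log2FC, SE 0.39, edgeR adjusted p = 0.00339), with 768, 763 and 735 CPM in control and 124, 136 and 388 CPM in RUNX1 samples, where replicate 3 lay nearest to the controls. All 4 are passenger arms, the less abundant strand of their hairpin. The 4 arms that fell had negative values under all 5 other scalings or tools tried, but miR-20a-3p lost its call with RLE factors (-0.47) and in DESeq2 (-0.46). miR-19a-3p lost its call with miR-10a-5p left out of the library size (0.50) and with library size alone (0.13). With library size alone 9 of the 10 arms were called lower and none higher, and without RUNX1 replicate 1 the number called with TMM was 3.

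Of the 6 arms of miR-106b/25, 1 was called, miR-25-5p, which fell by 1.57 (log2FC, SE 0.45, edgeR adjusted p = 0.0143), and the median was -0.15. Size scaling alone gave 5, all lower, and leaving out RUNX1 replicate 3 gave 2. The arms shared between the X-linked and the chromosome 13 locus did not meet the call rule, with log2FC values of -0.43 (SE 0.14) for miR-19b-3p and -0.37 (SE 0.17) for miR-92a-3p. The locus of origin of these shared arms cannot be read from the counts.

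The miR-424 to miR-542 cluster (miR-424, miR-503, miR-542 and the miR-450 hairpins) is a further X-linked microRNA cluster. Its nearest hairpin, MIR450B, lies 369906 bases from MIR106A. Of the 11 arms of this cluster 6 passed the filter, 3 rose and none fell with TMM, beside 57.6% called among all tested small RNAs, and the median log2FC was 0.54. With library size alone 2 were called higher and 2 lower, miR-424-3p (-0.999) and miR-450b-5p (-0.57). miR-542-3p had 4.78, 4.84 and 5.0 CPM in control and 16.0, 16.0 and 12.4 CPM in RUNX1 samples, with a log2FC of 1.59 (SE 0.20, adjusted p = 0.000154 in the same edgeR test). miR-542-5p rose by 1.52 (SE 0.36, edgeR adjusted p = 0.0054), and both arms of miR-542 stayed called as higher with library size alone (0.89 and 0.82). miR-424-5p rose by 0.61 (SE 0.16, edgeR adjusted p = 0.0108) with TMM, but was at -0.10 with library size alone. Without RUNX1 replicate 3 the number called was 5.

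**Figure D4:**
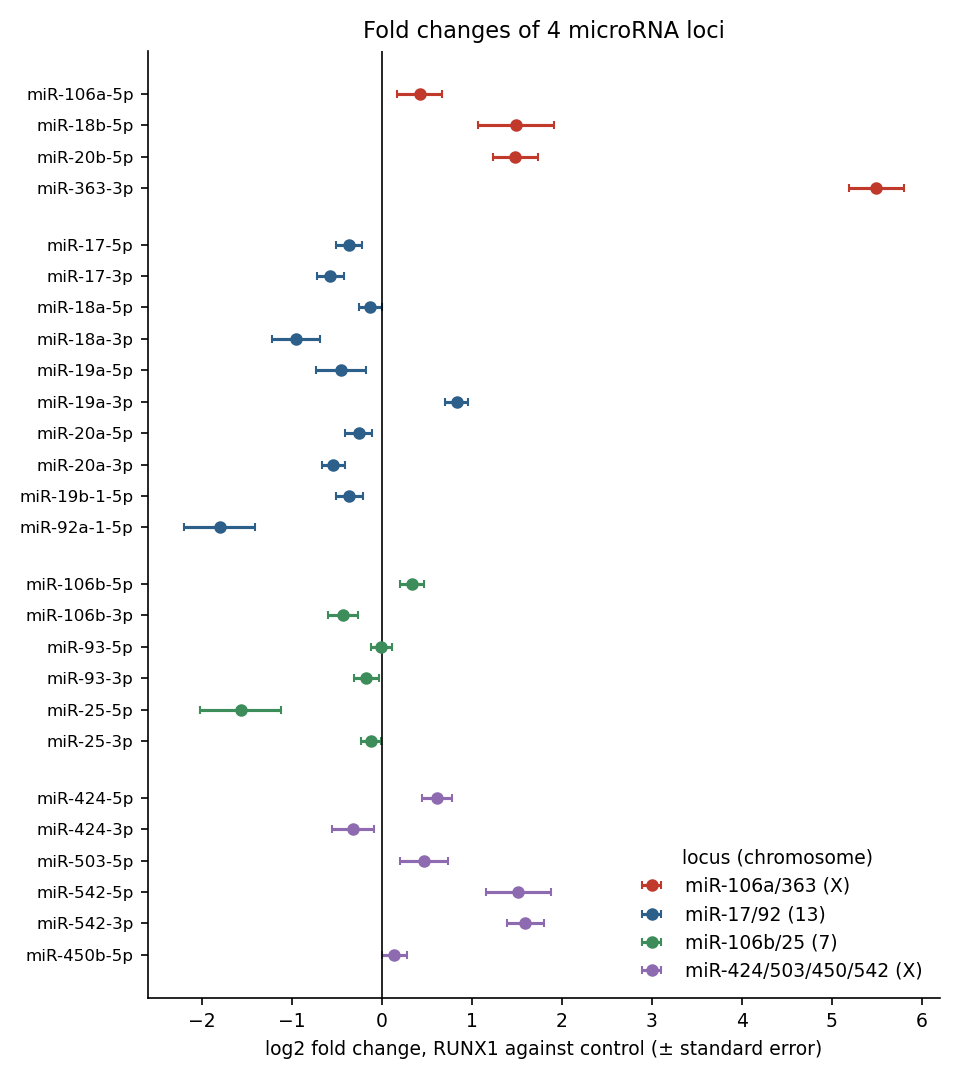
log2FC between RUNX1 and control samples with its SE for the tested arms of the miR-106a-363 cluster (red), its paralogs miR-17/92 (blue) and miR-106b/25 (green), and the X-linked miR-424 to miR-542 cluster (purple). The 4 members lie at 0.42 to 5.50, and the arms of miR-17/92 lie at -1.81 to 0.83.

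Across the 6 samples, the pattern of a microRNA was compared with that of a member by the root mean square distance of log2(CPM + 0.5) values centred on the control mean, over 594 other tested microRNA entries. The entries closest to miR-363-3p were miR-4532 (distance 0.23, log2FC 4.66), miR-1269a (distance 0.33, log2FC 4.81) and miR-221-3p (distance 0.45, log2FC 4.22). miR-20b-5p was closest to miR-3607-3p, miR-375 and miR-3660, at distances of 0.09 to 0.12. The nearest to miR-106a-5p were miR-30a-3p, miR-99b-3p and miR-2277-5p, at distances of 0.12 to 0.18. Among the members themselves miR-18b-5p and miR-20b-5p were closest (0.50), and miR-106a-5p and miR-363-3p were farthest apart (3.10). The distance is over 6 samples in 2 conditions and rests mostly on the size of the difference between them. For miR-363-3p the added 0.5 is near its control mean of 0.627 CPM and shrinks its difference. Its neighbours therefore have lower log2FC values than its 5.50, and their order depends on the added value.

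Scaling moved the size of every member's fold change. With TMM the median log2FC over all tested small RNAs was -0.06, and with size scaling alone it was -0.76. On the latter scale the log2FC values were 4.79 for miR-363-3p, 0.78 for miR-20b-5p and 0.79 for miR-18b-5p, the last of which no longer met the call rule. RUNX1 replicate 3 had the lowest level of its group for miR-363-3p, miR-20b-5p and miR-18b-5p, and differed more from the other 2 RUNX1 libraries (chi-square per degree of freedom 451 and 314) than those did from each other (56.3). Without it the log2FC values were 5.74, 1.68 and 1.79.

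**Figure D5:**
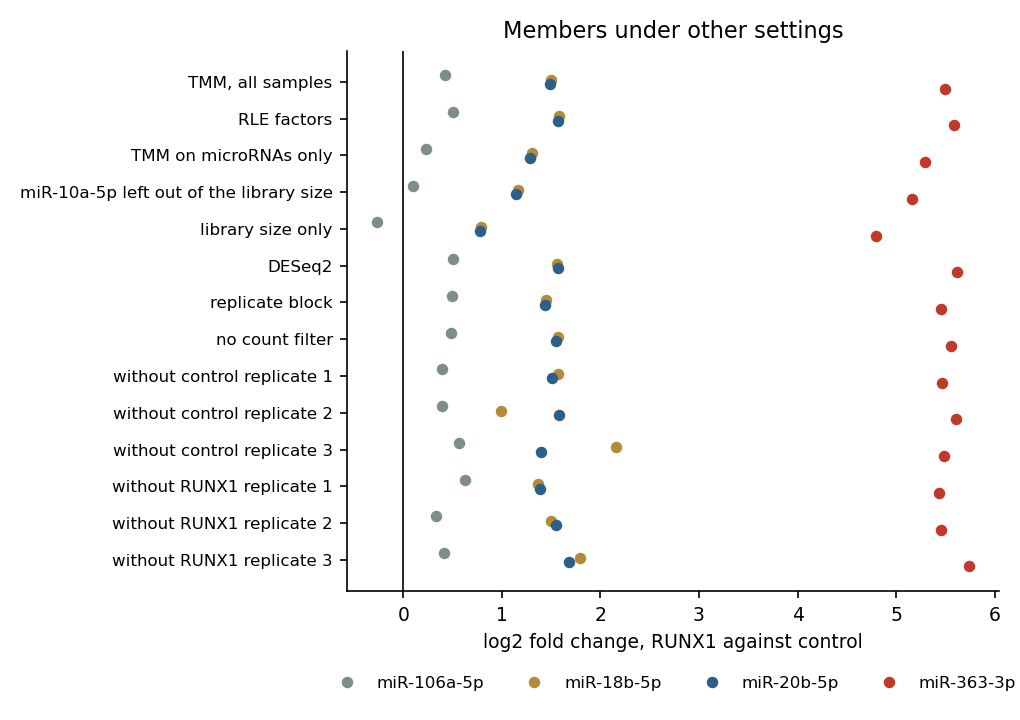
log2FC of the 4 tested members under 14 settings, one per row. miR-363-3p lies at 4.79 to 5.74 throughout, miR-20b-5p and miR-18b-5p stay above 0, and miR-106a-5p passes below 0 when libraries are scaled to their size alone.

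In RefSeq the window from 250 bases before to 50 after the start of the host transcript MIR106AHG (GRCh38.p14, chrX:134174039-134174338, minus strand) was searched on both strands for TGTGGT and TGCGGT, the letters of the RUNX core site. It held no match, the window of MIR17HG held 1, and 19.6% of 35116 such windows held at least 1. These are matches of letters in a short window, and distant elements were not searched.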

How the data were processed

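Small RNA libraries of 3 control and 3 RUNX1 samples were made by the authors with the TruSeq Small RNA kit and sequenced on a HiSeq2000. The reads were demultiplexed with CASAVA 1.8.2 and processed on the OASIS platform. The submitters' processing notes name hg19, and the aligner and counter are not given in the sources used here. The authors deposited whole-number read counts per small RNA entry without normalization. Rows that name no small RNA held 0 counts and were left out.

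Conditions and replicate numbers came from the sample titles. In the submitters' library names the conditions carry different letters, so a difference in preparation, should the letters stand for one, cannot be told apart from condition. Counts were analysed in R 4.3.3 with edgeR 4.0.16 (filterByExpr with a minimum count of 10 and a minimum total of 15, TMM, glmQLFit and glmQLFTest, condition as the only term) over all 947 entries that passed. Standard errors were obtained from the fold change and the F statistic. Counts were also simulated for these 947 entries, with a log2 fold change of 1.5 for the changed ones, and filtered again. Of the 185 changed entries that passed this filter edgeR recovered 98.9%, and it called 2.36% of the unchanged entries that passed. The simulation gave all entries the same spread and changed 200 of them at random in either direction, with no deviating library. The data differ in this, with 57.6% of entries called, so these rates are not the power or error rate of the calls here. P-values weigh the difference between conditions against the spread between 3 transductions per condition, which edgeR estimates with help from all tested entries.

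The members and all lists were chosen with earlier results of these data known. Named are all members, the arms of the paralog clusters, the neighbouring X-linked cluster and the seed families, and the 3 closest patterns to 3 members. miR-133a was read from the entry miR-133a-3p. The 5p and 3p arms of a hairpin were to be compared as log2 ratios, but one arm had 0 to 2 counts, so the counts are given. Alternatives were RLE factors, library size alone, TMM on microRNAs only, miR-10a-5p left out of the library size, leaving out the count filter, a stricter filter (10 counts in each library), DESeq2 1.42.0, the adjusted P-value, the replicate number as a block, paralog arms summed, 1 count added in place of 0.5 before a ratio, a narrower seed family, and each replicate left out.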

Additional observations from a re-analysis of the deposited data

How the results depend on the processing

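The number of members called higher was 3 of 4 under most settings, 2 with library size alone and 3 to 4 with a replicate left out, and the number called lower was 0 throughout (edgeR and DESeq2). No member had 10 counts in every sample, so that filter gave no value for them. The total of altered small RNAs, 545, was 521 to 612 with a replicate left out. The miR-17/92 arms called, 5 in the fit with TMM, were 9 with library size alone, 8 with miR-10a-5p left out of the library size and 3 without a count filter, and 3 to 5 with a replicate left out. The miR-106b/25 arms called, 1 with TMM, were 5, 2 and 3 with library size alone, TMM on microRNAs and miR-10a-5p left out, and 1 to 2 with a replicate left out. For the miR-424 to miR-542 cluster the range with a replicate left out was 3 to 5. When paralog arms were summed before the fit, the log2 fold change was -0.26 for miR-20a-5p with miR-20b-5p and -0.12 for miR-18a-5p with miR-18b-5p, since the sum consists almost wholly of the chromosome 13 arm. The log2 ratios to the paralogs and the family shares kept their direction under all their alternatives.

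Samples with the same replicate number had correlations of -0.0327, -0.0904 and 0.0178 between their deviations from the condition means. With 3 libraries per condition these cannot decide whether same-numbered samples shared a preparation, and no pairing was assumed. A fit with a replicate block gave 546 altered small RNAs, and the log2 fold changes were 5.45 for miR-363-3p, 1.44 for miR-20b-5p, 1.44 for miR-18b-5p and 0.49 for miR-106a-5p. The block moved no call of a member. Depth limits the low end, since control replicate 1 held 1618248 counts and a single count there is a large part of a member's value.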
